A study of Mus musculus with 6 samples.

Results

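A set of 10 genes of the Notch pathway was followed in the cervical spinal cord of mouse embryos, namely the ligand genes Dll1, Dll3, Jag1 and Jag2, the receptor genes Notch1, Notch2 and Notch3, and the transcription factor genes Hes1, Hes5 and Hes6. They were chosen by symbol, each as a probe set annotated to that symbol alone, and all 10 were found among the 19920 genes measured on the array, with 1 probe set each. The series compared 3 arrays labelled Nkx2.9 knockout, lettered A, B and C, with 3 wild-type arrays of the same letters. All embryos were at embryonic day 11.5, and the dissected tissue was cord from which the floor plate and the dorsal part had been removed. The labels gave no strain, no description of the deleted allele and no statement of whether an array held 1 embryo or a pool, so p-values measure only the spread between these arrays, which may be technical. The product of Nkx2-9 is a homeodomain protein made by progenitors of the ventral cord, and the series sought its downstream genes in spinal accessory motor neurons as these develop.

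Notch signalling passes between touching cells. A Delta or Jagged ligand on one cell binds a Notch receptor on its neighbour, the receptor is cut first outside and then within the membrane, and the freed intracellular domain joins the DNA-binding protein Rbpj in the nucleus to switch on Hes genes. Hes1 and Hes5 repress proneural genes and keep cells of the embryonic neural tube as progenitors, while proneural factors raise Delta ligands in the cells that are about to become neurons. Hes6 is unlike the other 2 in that it promotes neuronal differentiation and counters Hes1.

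Promoters are shown for Hes5, a target of the pathway, and for Dll1 and Dll3, the ligand genes whose groups of arrays did not overlap in the values that follow. The sequences below are the 250 bases before the annotated start, from RefSeq on build GRCm38.p6, 5′ to 3′ on the gene's strand. The Hes5 window was chr4:154960673-154960922 on the plus strand, and its capitals mark TGGGAA, the core letters bound by Rbpj, or their reverse complement.
Hes5: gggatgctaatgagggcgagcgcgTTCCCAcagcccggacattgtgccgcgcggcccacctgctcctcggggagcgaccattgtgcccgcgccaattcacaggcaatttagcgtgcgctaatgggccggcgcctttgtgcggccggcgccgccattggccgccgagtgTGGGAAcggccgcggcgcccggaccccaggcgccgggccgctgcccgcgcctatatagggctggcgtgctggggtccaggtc
Dll1 had a window at each of 2 annotated starts, chr17:15375824-15376073 and chr17:15376933-15377182, and Dll3 had chr7:28301786-28302035, all on the minus strand. Their capitals mark E-boxes, CANNTG, the letters bound by proneural and other basic helix-loop-helix factors.
Dll1, first window: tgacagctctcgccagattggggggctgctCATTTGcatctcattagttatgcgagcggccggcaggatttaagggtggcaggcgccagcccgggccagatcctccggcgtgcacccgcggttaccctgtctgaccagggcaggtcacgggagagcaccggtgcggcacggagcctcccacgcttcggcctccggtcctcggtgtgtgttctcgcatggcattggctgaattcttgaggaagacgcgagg
Dll1, second window: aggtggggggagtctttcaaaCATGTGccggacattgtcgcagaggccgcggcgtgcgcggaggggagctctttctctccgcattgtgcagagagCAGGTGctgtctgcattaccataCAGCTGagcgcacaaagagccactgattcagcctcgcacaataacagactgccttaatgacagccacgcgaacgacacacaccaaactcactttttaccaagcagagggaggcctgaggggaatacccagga
Dll3: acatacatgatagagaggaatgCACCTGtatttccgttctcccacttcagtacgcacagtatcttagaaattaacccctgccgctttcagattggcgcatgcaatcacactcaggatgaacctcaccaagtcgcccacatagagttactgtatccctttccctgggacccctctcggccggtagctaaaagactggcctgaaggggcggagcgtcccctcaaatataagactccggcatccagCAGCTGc
Of the 10 genes 9 had a window, 11 windows in all. Hes1 had no window in the sequences used, so its promoter was not searched. TGGGAA on either strand was found in 1 of the 11, that of Hes5, where it stood 2 times with its first base 226 and 82 bases before the start; 21.6% of all 32851 promoter windows of that length held it. E-boxes were in 7 of the 11 windows and in 66.2% of all, and the N-box CACNAG, the letters that Hes repressors bind, in 4 of the 11 and in 36.7% of all, both searched on both strands. No match of one motif overlapped a match of another in these 11 windows. A match describes letters and is not a binding site.

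The deposited values were log2 expression with each probe set's median over the 6 arrays subtracted. A value of 0 is therefore the middle of that gene's own 6 arrays, differences between arrays can be read, and neither the level of a gene nor the presence of a marker can. The libraries were checked on genes outside the pathway. Nkx2-9 itself differed by 0.18 on the log2 scale in the arrays labelled knockout against the wild type (adjusted p = 0.812 by limma; p = 0.2 by an exact two-sided permutation test, whose smallest possible value with these arrays is 0.1). That difference was 0.10 without knockout B and 0.27 without knockout A. Nkx2-9 was thus not lower where the label says knockout; the position of its probes relative to the deleted part was not known, and the arrays are called labelled knockout here. Xist, the X-inactivation RNA, was at 4.56 and 4.91 in the arrays labelled knockout B and C, at 0.11 in knockout A and between -0.25 and -0.11 in the wild type. The Y-linked genes Kdm5d, Eif2s3y and Uty ran the other way, between -3.20 and -2.57 in knockout B and C and between -0.035 and 0.17 on the other 4 arrays. The sex of the embryos thus differed between the groups, female by these genes in knockout B and C and male in knockout A and the wild type, and its part in the group differences was not tested beyond a fit with Xist status as a second term. The array labelled knockout C had the widest spread of values (SD over all probe sets 0.191, against 0.0979 to 0.140 on the other 5).

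Of the 10 genes 9 had a higher mean in the arrays labelled knockout than in the wild type, and the differences were small, from -0.011 for Hes5 to 0.34 for Notch1 on the log2 scale. The median difference was 0.10, beside 0.0087 over all 28815 probe sets, and the median size without regard to sign was 0.10 beside 0.053. No gene of the 10 passed an adjusted p of 0.05 in limma, nor did any probe set of the whole table (0% called); their lowest adjusted p was 0.812. At an unadjusted p under 0.05 there were 3 of 10, namely Dll1, Dll3 and Notch1, all higher in the arrays labelled knockout, where 5.57% of all probe sets passed that threshold, 3.07% higher and 2.5% lower. The same 3 were the ones in which all 3 arrays labelled knockout lay above all 3 wild-type arrays, as in 6.68% of complete probe sets; in 4.25% they lay wholly below, which makes 10.9% without overlap. Without knockout C the count of 3 became 0, as it did without wild-type B and with Xist status as a second term, and an unequal-variance test left 1. Over all probe sets 55% of differences were above 0, and with 1 array left out 7 to 9 of the 10 genes were higher, 9 of them without knockout C and 7 without knockout B. The median over the 10 genes was 0.062, 0.014 and 0.075 on knockout-labelled arrays A, B and C, against -0.034, -0.050 and -0.026 on wild-type arrays A, B and C. Dll1, Dll3 and Notch1 ran much alike over the arrays. Pearson r was 0.884 for Dll1 with Notch1, 0.836 for Dll1 with Dll3 and 0.798 for Dll3 with Notch1. The 3 genes are therefore not separate observations.

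**Figure D1:**
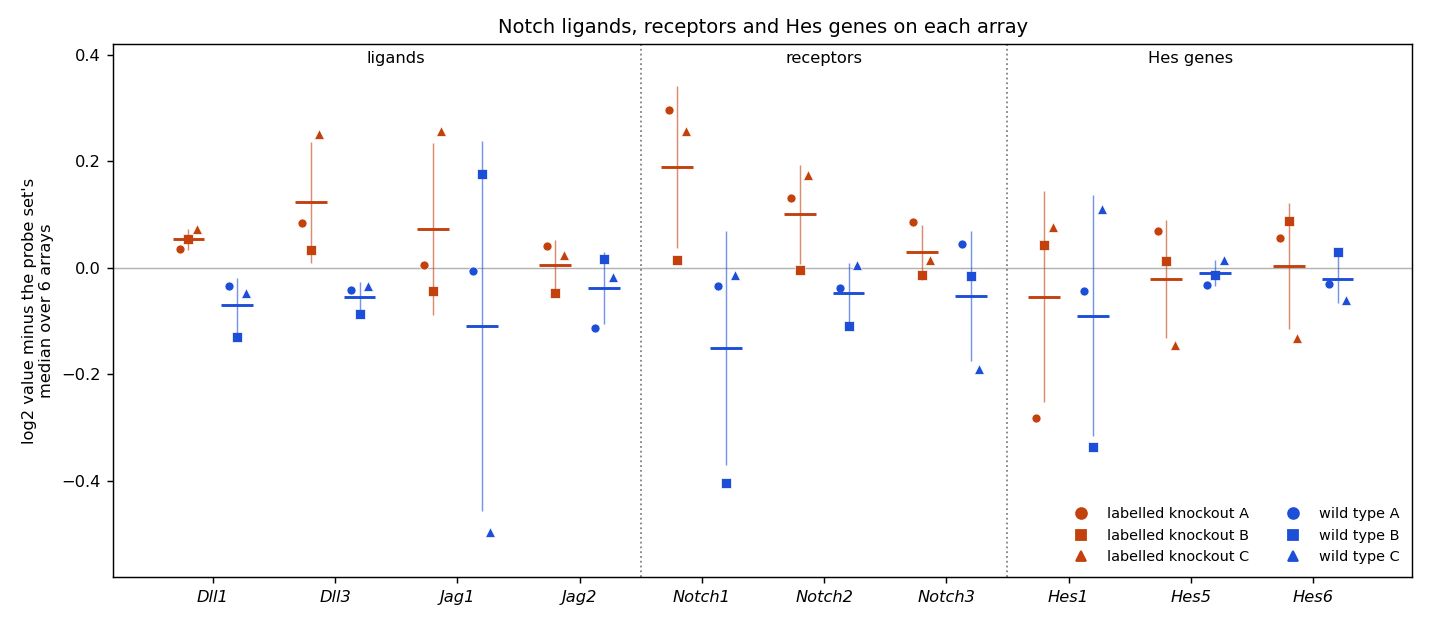
Each point is the value of a gene on 1 array (vertical axis, log2 value minus the probe set's median over the 6 arrays), with arrays labelled knockout in orange to the left of wild-type arrays in blue, the marker shape giving the letter, and the bars the mean and SD of 3 arrays. Dll1, Dll3 and Notch1 have no overlap between groups, and the points of Jag1, Jag2, Notch2, Notch3 and the Hes genes overlap.

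The Delta ligands were compared first. Dll1, the main activating ligand of the neural tube, was at 0.034, 0.054 and 0.074 on knockout-labelled arrays A, B and C, against -0.034, -0.13 and -0.047 on wild-type arrays A, B and C. The groups did not overlap, wild-type B was the lowest array, and the 3 arrays labelled knockout lay close together. The difference was 0.12 (SE 0.045, 95% interval 0.017 to 0.23; 1.09-fold), with an adjusted p of 0.812 in limma. Its within-group SD was smaller than that of most probe sets (14.2% had a smaller one). With 1 array left out the difference lay between 0.095 and 0.14.

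Dll3 encodes a divergent Delta that does not activate receptors on neighbouring cells and is made in cells that leave the progenitor state. It was at 0.085, 0.034 and 0.25 on knockout-labelled arrays A, B and C, against -0.042, -0.086 and -0.034 on wild-type arrays A, B and C. The groups did not overlap, and knockout C stood well above the other 5 arrays. The difference was 0.18 (SE 0.065, 95% interval 0.021 to 0.33; 1.13-fold), and it was 0.11 without knockout C.

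The Jagged ligands did not separate the groups. Jag1, which is also made by vessel walls, was at 0.0053, -0.043 and 0.26 on knockout-labelled arrays A, B and C, against -0.0053, 0.18 and -0.50 on wild-type arrays A, B and C. The highest array was knockout C and the lowest wild-type C, and within the wild type the values spanned more than in any other of the 10 genes. The difference of 0.18 (SE 0.18, 95% interval -0.25 to 0.61) was smaller than the SD of the wild type (0.35), and it was -0.012 without wild-type C, 0.090 without knockout C and 0.32 without wild-type B. Jag2 was at 0.040, -0.046 and 0.024 on knockout-labelled arrays A, B and C, against -0.11, 0.017 and -0.017 on wild-type arrays A, B and C. The groups overlapped, and the difference of 0.044 (SE 0.052, 95% interval -0.083 to 0.17) was 0.0061 without wild-type A, 0.027 without knockout A, 0.072 without wild-type B and 0.070 without knockout B.

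Among the receptors Notch1 had the largest difference of the 10 genes. Notch1, the receptor of neural progenitors best known for holding them undifferentiated, was at 0.30, 0.014 and 0.26 on knockout-labelled arrays A, B and C, against -0.033, -0.40 and -0.014 on wild-type arrays A, B and C. The groups did not overlap, but knockout B lay close to wild-type A and C, and wild-type B stood apart from the other 5. The within-group SD of Notch1 was larger than that of 89.6% of probe sets. The difference was 0.34 (SE 0.13, 95% interval 0.031 to 0.65; 1.27-fold), larger than that of 97.8% of probe sets in size, with an adjusted p of 0.812 in limma. Leaving out wild-type B gave 0.21, and leaving out knockout B gave 0.43.

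Notch2, a second receptor of the neural tube and other tissues, was at 0.13, -0.0044 and 0.17 on knockout-labelled arrays A, B and C, against -0.038, -0.11 and 0.0044 on wild-type arrays A, B and C. The groups overlapped only in that knockout B lay below wild-type C. The difference was 0.15 (SE 0.062, 95% interval -0.0019 to 0.30), between 0.11 and 0.20 with 1 array left out. Notch3, a receptor also known from the mural cells of vessels, was at 0.086, -0.014 and 0.014 on knockout-labelled arrays A, B and C, against 0.045, -0.015 and -0.19 on wild-type arrays A, B and C. Wild-type C was the low array and the rest overlapped. The difference of 0.082 (SE 0.071, 95% interval -0.089 to 0.25) was 0.014 without wild-type C, 0.053 without knockout A and 0.13 without wild-type A.

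The Hes genes, of which Hes1 and Hes5 are targets of the pathway and Hes6 is known to be raised by proneural factors, showed no difference in mean that exceeded the spread within groups. Hes1 was at -0.28, 0.043 and 0.076 on knockout-labelled arrays A, B and C, against -0.043, -0.34 and 0.11 on wild-type arrays A, B and C. Each group held 1 low array, knockout A and wild-type B, so that the groups overlapped fully; the difference was 0.036 (SE 0.14, 95% interval -0.31 to 0.38). Hes5, whose promoter held both TGGGAA matches shown above, was at 0.068, 0.014 and -0.14 on knockout-labelled arrays A, B and C, against -0.032, -0.014 and 0.015 on wild-type arrays A, B and C. The wild-type arrays lay close together and knockout C was low, with a difference of -0.011 (SE 0.063, 95% interval -0.16 to 0.14). Hes6 was at 0.056, 0.087 and -0.13 on knockout-labelled arrays A, B and C, against -0.030, 0.030 and -0.061 on wild-type arrays A, B and C. Knockout C was again the lowest of the 6, and the difference was 0.024 (SE 0.069, 95% interval -0.14 to 0.19). The sign of each of these 3 differences turned when single arrays were left out: Hes1 ran from -0.087 without wild-type B to 0.15 without knockout A, Hes5 from -0.055 without knockout A to 0.051 without knockout C, and Hes6 from -0.018 without knockout B to 0.092 without knockout C. The upper ends of the intervals, 0.14 for Hes5 and 0.19 for Hes6, leave room for differences as large as that of Dll1, so equal expression was not shown.

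By role, the median difference was 0.15 over the 4 ligands, 0.15 over the 3 receptors and 0.024 over the 3 Hes genes. All 4 ligands and all 3 receptors had a positive difference, as did 2 of the 3 Hes genes. The array labelled knockout C was the highest of the 6 for 4 genes, Dll1, Dll3, Jag1 and Notch2, and the lowest for Hes5 and Hes6.

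**Figure D2:**
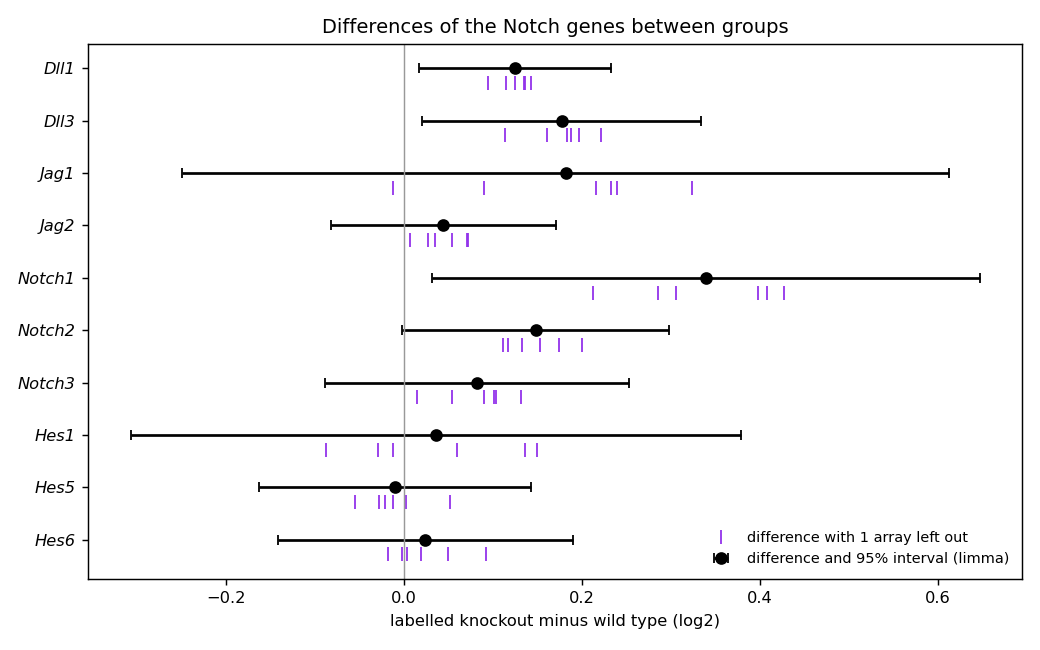
Points show the difference of the arrays labelled knockout minus the wild type (horizontal axis, log2) with its 95% interval from limma, and the ticks under each point the same difference with 1 array left out at a time. The intervals of Dll1, Dll3 and Notch1 lie above 0 before adjustment, those of the other 7 genes span 0, and the ticks of Jag1 and the Hes genes fall on both sides of 0.

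The arrays also differed in markers of cycling cells and of neurons. Of the 15 measured cell cycle markers 15 had a higher mean in the arrays labelled knockout, beside 55% of all probe sets. Their median difference was 0.33, 0 of 15 reached an unadjusted p under 0.05, and the groups overlapped in all 15. Their median ran at 0.18, -0.089 and 0.26 on knockout-labelled arrays A, B and C, against -0.095, -0.59 and 0.042 on wild-type arrays A, B and C. Wild-type B, the lowest array for Notch1, Notch2, Dll1, Dll3 and Hes1, was thus also lowest for cell cycle markers, and knockout A and C, the 2 highest arrays for Notch1 and Notch2, were the 2 highest. Without wild-type B the median difference of the cell cycle markers was 0.14. The 12 markers of differentiated neurons were lower in 11 of 12, with a median difference of -0.14 that was -0.091 without knockout C. Of these 12, 2 were lower at an unadjusted p under 0.05, beside 2.5% of all probe sets. They were the RNA-binding protein gene Elavl3 (-0.13, SE 0.044) and the synaptic vesicle gene Syt1 (-0.44, SE 0.17). The list's median ran at -0.052, 0.0056 and -0.20 on knockout-labelled arrays A, B and C, against 0.033, 0.15 and -0.013 on wild-type arrays A, B and C. Dner, a gene of neuronal membranes given with the pathway further on, was likewise lowest in knockout C and highest in wild-type B. The 10 neural progenitor markers had a median difference of 0.0085, 5 higher and 5 lower, with no settled sign when arrays were left out (-0.042 to 0.043). Prom1, a surface protein of progenitors, was the one at an unadjusted p under 0.05, beside 3.07% of all probe sets higher at that threshold. It was at 0.36 (SE 0.13), and at 0.21 without wild-type B. The part of these marker differences in the values of the Notch genes was not tested. In such tissue fewer cells of a type and less RNA per cell cannot be told apart.

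Markers of tissues around the cord were highest on 1 array. The 10 vessel markers, among them the endothelial receptor gene Notch4 and ligand gene Dll4, had a median of -0.11, 0.024 and 0.43 on knockout-labelled arrays A, B and C, against -0.061, 0.085 and -0.064 on wild-type arrays A, B and C. On knockout C Dll4 was at 0.32 and Notch4 at -0.0053, so Notch4 was not high there. The 9 mesenchyme and pericyte markers had a median of -0.039, -0.013 and 0.66 on knockout-labelled arrays A, B and C, against -0.090, 0.14 and -0.0072 on wild-type arrays A, B and C. In both lists knockout C was highest and wild-type B next, as for Jag1 but not for Notch3. The lowest array was wild-type C for Jag1, knockout A for the vessel list and wild-type A for the mesenchyme list. The median differences were 0.21 with 8 of 10 higher for vessels and 0.26 with 9 of 9 higher for mesenchyme, 0 members of either at an unadjusted p under 0.05, and without knockout C they were -0.023 and -0.057. Without knockout A they were 0.33 and 0.40, and the vessel median was 0.14 without wild-type A. The 7 markers of neurogenic commitment had a median difference of 0.16 with 6 higher, and Neurog1, a proneural factor, was at 0.16 (SE 0.056, unadjusted p = 0.0276). Without knockout C the median of the commitment markers was 0.084, and without wild-type C 0.083. The 5 floor plate markers, of tissue that was left out, were higher in 5 of 5 with a median of 0.18, 3 of them (Foxa1, Foxa2 and Spon1) at an unadjusted p under 0.05, beside 55% of all probe sets with a positive difference and 3.07% higher at that threshold. Spon1 was at 0.22, and at 0.14 without knockout B. Dorsal cord markers had a median of -0.022 over 7 genes (3 higher), motor neuron markers -0.0031 over 7 (3 higher), and dorsal root ganglion and neural crest markers -0.065 over 2 (1 higher). With 1 array left out these medians lay between -0.077 and 0.063, between -0.061 and 0.10, and between -0.15 and -0.022 in that order, so the first 2 had no settled sign. Of the 7 motor neuron markers 1, Isl2, came under an unadjusted p of 0.05. Isl2 was at 0.18 (SE 0.067, unadjusted p = 0.0366 by limma), without overlap between groups, and between 0.13 and 0.24 with 1 array left out. Whether these markers play a part in the Notch gene values was not tested.

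**Figure D3:**
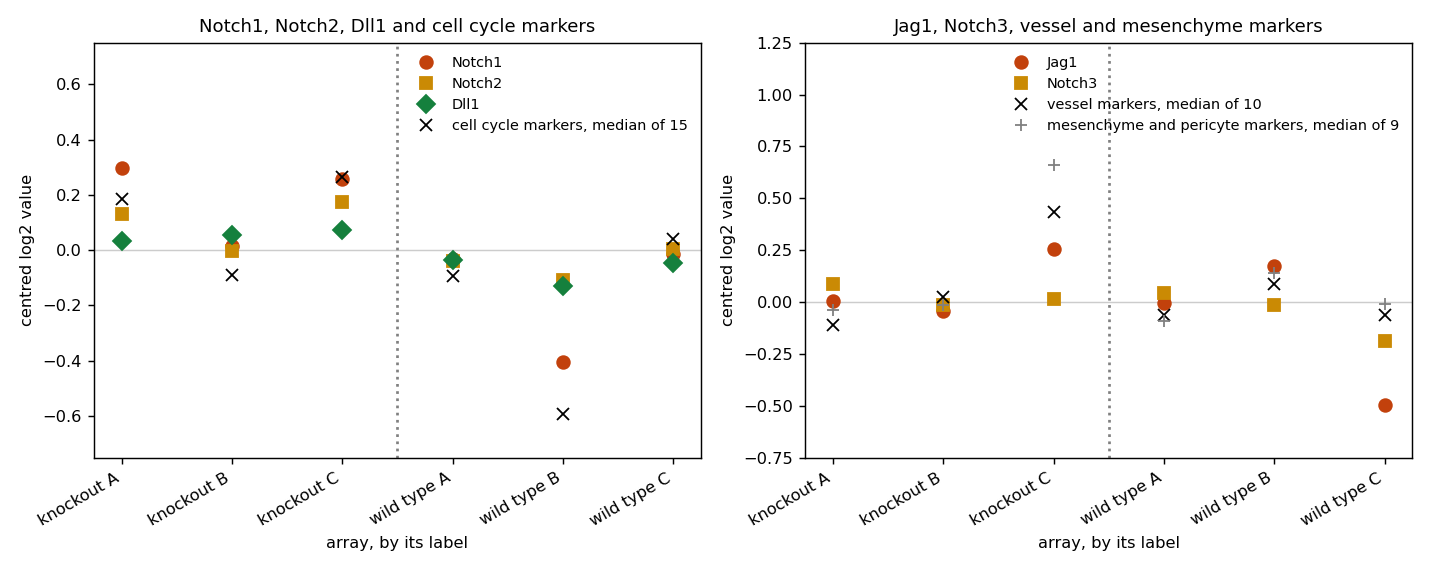
Points show centred log2 values on each array (horizontal axis, arrays labelled knockout left of the dotted line and wild type right of it), for Notch1, Notch2 and Dll1 with the median of 15 cell cycle markers in the left panel, and for Jag1 and Notch3 with the medians of 10 vessel and 9 mesenchyme and pericyte markers in the right panel. Wild-type B is lowest for Notch1 at -0.40 and for the cell cycle markers at -0.59, and knockout C is highest for Jag1 at 0.26 and for the mesenchyme markers at 0.66.

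Outside these 10, the lists held 43 measured genes of the pathway, 23 with a positive and 20 with a negative difference, with a median difference of 0.012. At an unadjusted p under 0.05 there were 1 higher and 4 lower of the 43, beside 3.07% and 2.5% of all probe sets, and 0 passed adjustment in limma. Among other ligands and receptors (5 genes, 3 higher, median 0.028), Dner, which encodes a neuronal membrane protein described as a Notch ligand, was at -0.26, -0.032 and -0.79 on knockout-labelled arrays A, B and C, against 0.032, 0.30 and 0.22 on wild-type arrays A, B and C. The groups did not overlap; the difference was -0.55 (SE 0.19, unadjusted p = 0.0285), and -0.33 without knockout C. Dlk2, a Delta-like gene, was at 0.081 (SE 0.049).

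Among genes that modify receptors and ligands (9 genes, 5 higher, median 0.029), Rfng was lower. It encodes radical fringe, which adds sugar to Notch and alters its response to ligands, and was at -0.099, -0.063 and -0.20 on knockout-labelled arrays A, B and C, against 0.063, 0.15 and 0.15 on wild-type arrays A, B and C. The groups did not overlap, and the difference of -0.24 (SE 0.054, unadjusted p = 0.00366, adjusted p = 0.812 in limma) lay between -0.27 and -0.20 with 1 array left out. Mib1, the ubiquitin ligase that makes Delta ligands active by endocytosis, was at 0.098 (SE 0.040, unadjusted p = 0.0465), between 0.081 and 0.11 with 1 array left out.

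Among genes of receptor cleavage (7 genes, 3 higher, median -0.011), Psenen, a subunit of gamma-secretase, was at -0.058, -0.18 and -0.56 on knockout-labelled arrays A, B and C, against 0.058, 0.13 and 0.060 on wild-type arrays A, B and C. The groups did not overlap and knockout C was far below the rest. Psenen had 2 probe sets, and the values of the other one are not given here. The difference was -0.35 (SE 0.13, unadjusted p = 0.0308), and -0.20 without knockout C. Psen2, the catalytic subunit in one form of the same enzyme, was at 0.11 (SE 0.054).

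The list of the nuclear complex and corepressors had 8 measured genes. Of these 2 were higher and 6 lower, with a median of -0.074, against 55% higher over all probe sets. The list mixes coactivators with corepressors such as Spen and Ctbp1, so its count does not describe either kind alone. Maml2, a coactivator that binds the Notch intracellular domain on Rbpj, was at -0.42, -0.10 and -0.20 on knockout-labelled arrays A, B and C, against 0.13, 0.11 and 0.10 on wild-type arrays A, B and C. The wild-type arrays lay close together and the groups did not overlap. The difference was -0.36 (SE 0.083, unadjusted p = 0.00452, adjusted p = 0.812 in limma), between -0.42 and -0.27 with 1 array left out. Rbpj itself was at -0.017, -0.035 and -0.041 on knockout-labelled arrays A, B and C, against 0.11, 0.017 and 0.092 on wild-type arrays A, B and C. Its groups did not overlap either, at a difference of -0.10 (SE 0.043, unadjusted p = 0.0507). Maml2 and Rbpj had 2 probe sets each, and the values of the other one are not given here. The median of the 8 genes was -0.033 without knockout C and -0.047 without knockout A.

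The 7 other target genes had 6 higher and 1 lower, with a median of 0.041. Hey1, a repressor related to Hes1, was at 0.13 (SE 0.058, unadjusted p = 0.058), and 0.087 without wild-type B. Heyl, a relative found in vessel walls among other places, stood at 0.91 in knockout C and between -0.057 and 0.045 on the other 5 arrays, and its difference of 0.36 (SE 0.23) was 0.074 without knockout C. Inhibitors and regulators such as Dtx1 (-0.14, SE 0.069) and Dtx2 (-0.12, SE 0.066), both genes of the Deltex family, had a median of 0.012 over 7 genes, 4 of them higher. With 1 array left out the list medians lay between -0.0031 and 0.083 for other ligands and receptors, -0.00036 and 0.049 for the modifying genes, -0.027 and 0.036 for cleavage, 0.029 and 0.090 for other targets, and -0.011 and 0.022 for inhibitors and regulators, so that 4 of these 5 medians had no settled sign. Without knockout C Dtx1 was at -0.090 and Dtx2 at -0.073.

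**Figure D4:**
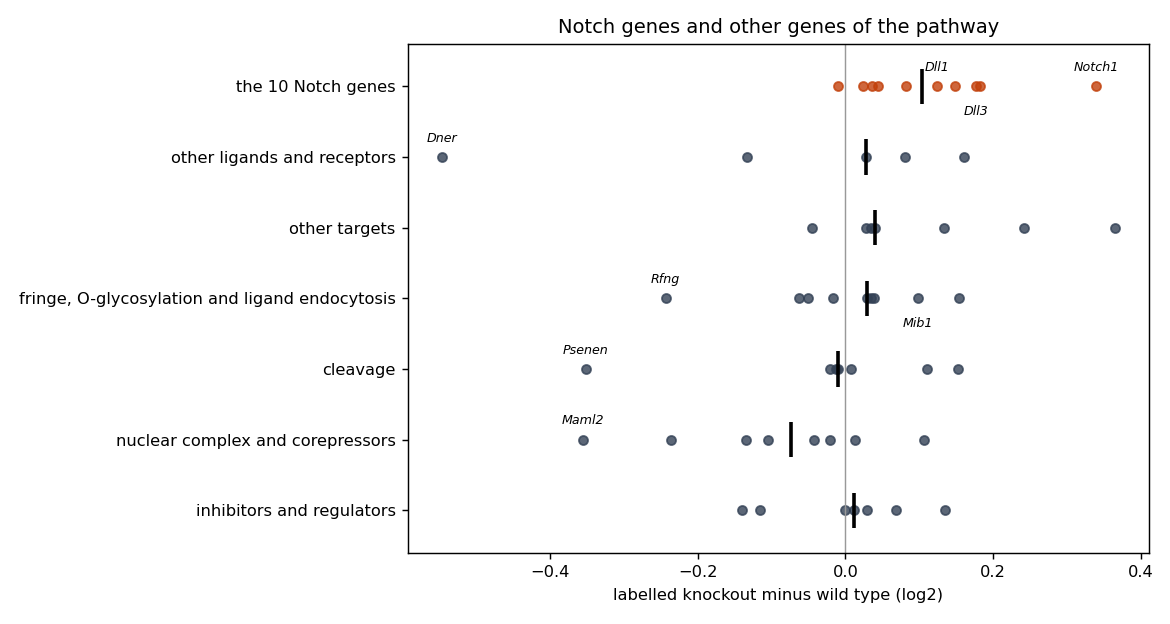
Each point is the difference of 1 gene, labelled knockout minus wild type (horizontal axis, log2), by group of the pathway; black bars are group medians, and names are given to genes at an unadjusted p under 0.05. The 10 Notch genes have a median of 0.10, and the nuclear complex and corepressors one of -0.074.

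The genes whose values over the 6 arrays were most like those of a member were listed for 1 gene of each role among 17149 genes. For Notch1 they were Dlgap5, a mitotic spindle gene (Pearson r = 0.998), the zinc finger gene Zfp407 (0.992) and Wdhd1, a gene of DNA replication (0.990). Dlgap5 was at 0.35, 0.0094 and 0.31 on knockout-labelled arrays A, B and C, against -0.085, -0.50 and -0.0094 on wild-type arrays A, B and C, which is nearly the run of Notch1. For Dll1 they were the ribosomal protein gene Rpl13 (0.996), Ccn2, a secreted matrix-associated protein gene (0.992), and the G protein-coupled receptor kinase gene Grk6 (0.992). For Hes5 they were Ccdc57 (0.993), Mlf2 (0.986) and Spopfm2 (0.986). With only 6 arrays, 406, 184 and 172 genes had r above 0.9 with Notch1, Dll1 and Hes5, so these likenesses are descriptions over arrays that share library effects.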

How the data were processed

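Total RNA of 6 samples was amplified into sense-strand cDNA, fragmented, labelled with biotin and hybridised, per the labels' protocols. The authors used RMA (background correction, normalization between arrays and probe summary) to obtain the deposited log2 values, per the submitters' processing notes; its version, settings and log base are not given in the sources used here, and base 2, which RMA uses, was assumed. Complete probe sets had a median of 0 across the 6 arrays, to within 5e-07, so signal over background could not be seen. The number of arrays limits the precision.

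The table held 28815 probe sets, 21780 with 1 symbol, 1605 with several and 5430 with none in the platform annotation; 24 lacked a value on wild-type C and were fitted without that array. Each gene was read from 1 complete probe set, the one with most accessions, and any other probe sets of a gene are not given. Entrez identifiers of all 10 Notch genes were found in a RefSeq table of GRCm38.p6. Genotype was the only term in limma 3.58.1 (lmFit and eBayes, R 4.3.3), adjusted by Benjamini-Hochberg over all probe sets at 0.05; standard errors and 95% intervals are those of the moderated fit, and unadjusted p-values and intervals are descriptions. The procedure was tested on simulated data with independent noise in each probe set. The simulation held no effects shared within an array or by sex, so it does not bear on such effects here. Figures used matplotlib 3.10.9 in Python 3.11.15.

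Members, gene lists and alternatives were chosen with earlier results of these data known. The genes named were the 10, Nkx2-9, Xist, the 2 of lowest p in each pathway list, and the 3 of highest Pearson correlation with Dll1, Notch1 and Hes5, leaving out predicted genes, clones, receptors of smell and small RNAs. Prom1, Neurog1, Elavl3, Syt1, Foxa1, Foxa2, Spon1, Isl2 and the Y-linked genes were named after their values were seen. The alternatives tried were quantile normalization, median centring, a replicate block by letter, array weights, a robust prior, Xist status (high on 2 arrays) as a second term, an unequal-variance test, 1 probe set per gene, the mean over probe sets, complete probe sets and leaving out each array. Listed genes without a probe set of 1 symbol were not analysed here.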

Additional observations from a re-analysis of the deposited data

How the results depend on the processing

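The differences of the 10 genes, their median and counts, and the counts over all probe sets were recomputed under 16 alternatives. The marker lists and the other pathway genes were recomputed only with 1 array left out. Dll1, Dll3, Jag2, Notch1, Notch2 and Notch3 kept a positive difference under all 16, and none of the 10 genes reached an adjusted p of 0.05 under any. The median difference of the 10 genes lay between 0.091 and 0.14 with 1 array left out, the highest without wild-type A, and was 0.13 without the array labelled knockout A. The count of probe sets at an adjusted p under 0.05, 0 in limma and 0 with the unequal-variance test, ran from 0 to 5 with 1 array left out; the 5 came without knockout A, and the 4 with a symbol were Xist and the Y-linked genes Kdm5d, Eif2s3y and Uty. Probe sets at an unadjusted p under 0.05 numbered 1605, and 977 without wild-type B, 2871 without knockout B and 928 with the unequal-variance test.

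Signs turned as follows, and the cause was not tested. Hes1 was at -0.19 with the Xist term, and with 1 array left out from -0.087 to 0.15. Hes5 was at 0.011 with array weights and 0.079 with the Xist term, and from -0.055 to 0.051 with 1 array left out. Hes6 ran from -0.018 to 0.092 and Jag1 from -0.012 to 0.32 with 1 array left out. With the Xist term, in which knockout A alone stands against the wild type and is assumed to vary like the other arrays, Notch1 was at 0.45 and Dll3 at 0.14. Of the probe sets at an unadjusted p under 0.05, 55.2% were higher in the arrays labelled knockout, 44.7% with the Xist term and 48.5% with quantile normalization.

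The labels do not say that a letter pairs arrays. The deviations from group means of same-lettered arrays correlated at 0.165, 0.216 and 0.016 for A, B and C over complete probe sets. Arrays of different letters correlated between -0.187 and 0.044. The A and B pairs thus lay above every pair of different letters, and the C pair did not. These values do not settle whether letters pair arrays. A replicate block left the difference of Notch1 at 0.34 with an adjusted p of 0.415 in limma. Under the block Notch2 came under an unadjusted p of 0.05 and Dll1 no longer did, so that the 3 genes there were Dll3, Notch1 and Notch2. The block gave 2552 probe sets at an unadjusted p under 0.05, against 1605 without it, and called 0 after adjustment.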
